A study of Rattus norvegicus with 8 samples.

Results

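The cell body side of cultured rat hippocampal neurons was examined after the peptide Abeta(1-42), in soluble oligomeric form, had reached their axons alone. Members are the genes of the authors' deposited cell body table that carry a gene symbol and have a mean normalized count of at least 10, which holds for 9267 of 26405 rows. A normalized count is a read count divided by a size factor for the depth of its library, and the mean is over 4 libraries. Neurons from embryonic rats were kept for 10 to 14 days in microfluidic chambers, in which axons grow through grooves into a compartment of their own. For 24 h that axonal compartment received either the oligomers or vehicle, and RNA was then purified from each compartment. The cell body compartment gave 2 libraries from chambers with Abeta on the axons (soma Abeta) and 2 from chambers with vehicle (soma vehicle), and the axonal compartment gave 2 and 2 likewise. The cell body RNA is labelled as soma and neurites, so dendrites and the first part of axons are in it. No label gives a rat strain, and none says that the 2 libraries of a group came from separate cultures, and the spread that p-values rest on may therefore be technical.

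Abeta(1-42) is the peptide that forms plaques in Alzheimer's disease, and its soluble oligomers bind to synapses and axons. Axons hold their own set of mRNAs and translate them locally, while most transcripts are made and kept in the cell body. A signal that starts in an axon can be carried back to the nucleus and alter transcription there, and Atf4 made in the axon is one such carrier known from work on Abeta. The cell body contrast measures whether transcript levels differ on that side.

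The headers of the deposited table do not name the treatment in the numerator of the fold change. Positive side here means a log2 fold change above 0 and negative side one below 0, and no side is given a treatment. For 9266 of the 9267 members, the digits of the deposited means gave back the whole reads of every library, and the sign of genes read in 1 library alone gave the side of each library. Each side held 1 deep and 1 shallow library. Size factors were 2.97 (positive side) and 3.74 (negative side) for the deep pair and 0.297 and 0.320 for the shallow pair. Reads in members numbered 2493244 and 3348033 in the deep libraries and 238741 and 256598 in the shallow ones. The median member had 129.5 and 167 reads in the deep libraries but 13 and 14 in the shallow ones, where 37.9% and 35.8% of members had under 10 reads. Depth was thus spread evenly over the sides. The recovered libraries could not be matched to sample titles, so they are compared by side. The sides are the treatment groups of the contrast, but which is which is not known.

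Glial and cytoskeletal transcripts headed the ranking of members by reads. A rank here is a share of reads and no transcript number, since long transcripts yield more reads. LOC310926, a symbol that the RefSeq gene table does not hold, had an authors' mean of 264473 normalized counts and alone took 24.1% of the summed member means. Apoe followed, the lipid carrier that astrocytes secrete, with 10241 and 7752 normalized counts in the deep and shallow library of the positive side, against 7084 and 6791 on the other. Its positive side lay above its negative side in both pairs, without overlap.

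Among the 20 most read members were also the neuronal tubulin Tuba1a (as LOC100910937), Tuba1c (as LOC100909441), Tubb2b, the microtubule-binding Map1b, beta actin (Actb), the axon guidance mediator Dpysl2 and the membrane skeleton gene Sptan1. Tubulin and actin genes have near copies that can share reads, so their values are uncertain. Gfap and Vim, the intermediate filaments of astrocytes, stood beside Cst3 and Ctsb (a protease inhibitor and a lysosomal protease), Psap (saposins), Scd2 (a fatty acid desaturase, as LOC100912469) and Eef1a1 (translation elongation). Without LOC310926, the 10 most read members held 4.97%, the first 100 held 16.8% and the first 1000 held 48.0% of the summed means, and 1098 members made up 50%. The median member had an authors' mean of 45.5.

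**Figure D1:**
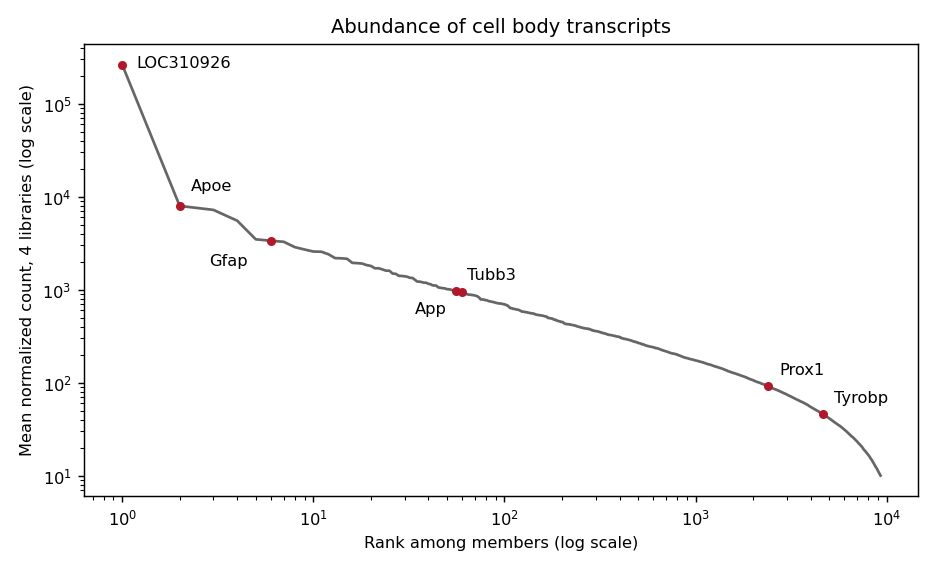
Authors' mean normalized count of the 9267 members (log axis) against their rank (log axis), with 7 members named. LOC310926 stands apart at 264473, Apoe follows at 7967, and the curve then falls to the threshold of 10.

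The labelled neurons were present by their markers. Of 15 pan-neuronal markers, 12 were members and 0 were below a mean of 10. Map2 and Snap25 had authors' means of 1366 and 307 but no symbol in the table and so are not members, and Nefm had no row. Dcx, a microtubule protein of young neurons, had 1132 and 1014 normalized counts in the deep and shallow positive-side libraries, against 1613 and 988 on the other side. Tubb3, the neuronal tubulin, had 1070 and 956 against 937 and 904, and the growth cone protein Gap43 had 788 and 525 against 944 and 441. Dcx and Gap43 overlapped between sides, whereas both positive-side values of Tubb3 lay above both negative-side ones.

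Glutamatergic markers were read well where they had a symbol. Neurod6, a transcription factor of hippocampal pyramidal neurons, had an authors' mean of 382, and the NMDA receptor subunit Grin2b one of 213. Slc17a7 (660), Gria2 (1164) and Grin1 (149), the vesicular glutamate transporter and receptor subunits, had reads on rows without a symbol, by the authors' means. Prox1, a dentate gyrus factor, had 23.9 and 21.9 normalized counts in the deep libraries and 134.7 and 184.6 in the shallow ones. In all, 10 of 15 hippocampal region markers were members, and C1ql2, C1ql3 and Dsp were below 10.

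Interneuron markers were present in part. Gad1, which makes GABA, had 101 and 53.9 normalized counts on the positive side, against 101 and 56.3 on the other. Reln, a secreted protein of interneurons and Cajal-Retzius cells, had an authors' mean of 301. The parvalbumin gene Pvalb, Vip, Lhx6 and the 3 Dlx genes listed were below 10. Of 16 markers of modulatory and other projection neurons, 2 were members, with authors' means of 11.2 (Ppp1r1b) and 10.8 (Slc18a2), and Slc6a4, Chat, Dbh, Hcrt and Isl1 were at 0.

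Glia were present beside the neurons. In bulk RNA, fewer cells of a type and less RNA per cell cannot be told apart. Of 19 astrocyte markers, 16 were members, and the 18 with a row had a summed authors' mean of 13350 normalized counts. The 14 pan-neuronal rows summed to 6837, and both sums are reads, not cells. Gfap had 2826 and 4061 normalized counts in the deep and shallow positive-side libraries, against 2693 and 3860 on the other side, so its shallow libraries lay above its deep ones on both sides. Aqp4, the water channel of astrocyte endfeet, had an authors' mean of 941, and Gjb6, a connexin of mature astrocytes, had 0.0842.

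Microglial markers were also found, with 16 of 19 as members. The complement genes C1qa, C1qb and C1qc had authors' means of 312, 258 and 293, and the receptor Csf1r had 174. Of these 16 members, 15 lay on the positive side, with a median log2 fold change of 0.18 in the authors' deposited table, against 4189 of 9267 members and a median of -0.03. None passed the authors' test, and the smallest unadjusted p in the authors' deposited table was 0.17, for the transcription factor Spi1 (DESeq2). The summed normalized counts of the list were 2597 (positive) and 2104 (negative) in the deep libraries, and 1482 and 1279 in the shallow ones. Genes of 1 cell type share their cells, so the 15 are not separate observations.

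Markers of other cell types ranged from well read to absent. Of 12 radial glia and progenitor markers 8 were members, and the list had a summed authors' mean of 3262, most of it from Vim and Fabp7, which the astrocyte list also holds (Fabp7, a fatty acid carrier, had 1011). The stem cell factor Sox2 had an authors' mean of 155 and Prom1 one of 112. Fibroblast and meningeal markers gave 8 members of 20 and a summed authors' mean of 745.1, of which the growth factor binder Igfbp2 made up 450. Oligodendrocyte lineage markers gave 5 members of 16, among them Cnp, a myelin enzyme, with an authors' mean of 74.9, while Gpr17 and Opalin were at 0 and Sox10, Mag and Cldn11 at 0.0842. Of 10 endothelial markers 0 were members, with Cldn5 at 0 and a summed authors' mean of 16.1 over 9 rows. The 5 globin genes with a row were at 0. Cycling cells left 9 members of 12, with authors' means of 78.9 for the replication clamp Pcna and 51.2 for the topoisomerase Top2a.

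**Figure D2:**
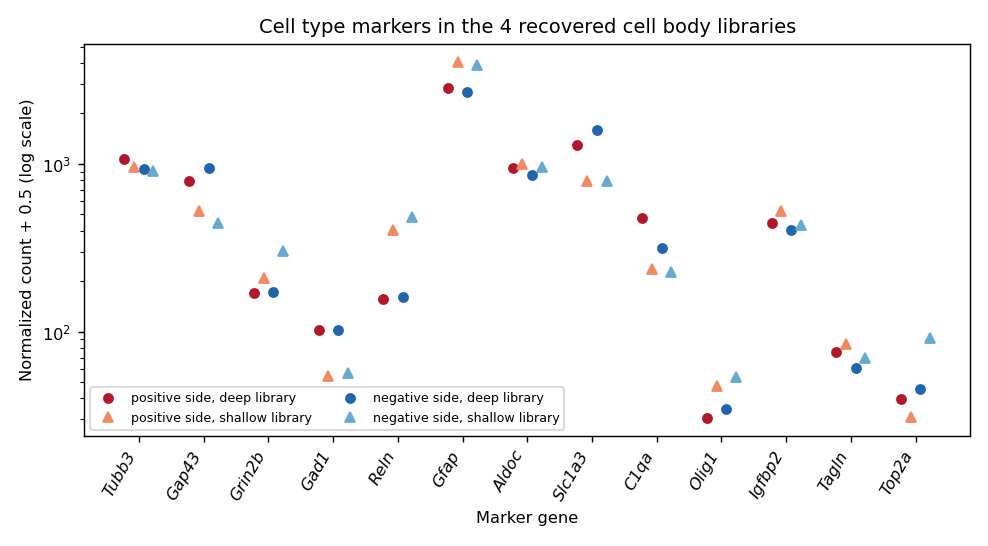
Normalized counts plus 0.5 (log axis) of 13 marker genes in the 4 recovered cell body libraries, in red and orange for the positive side, in blue for the negative side, with circles for deep and triangles for shallow libraries. For Reln and Gfap the shallow libraries lie above the deep ones, and for Gad1 and C1qa below, on both sides.

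No member passed the authors' test between the treatments, which has no term for the depth of a library. By the authors' deposited values, 0 of 9267 members had an adjusted p under 0.05 (DESeq2, Benjamini-Hochberg), beside 0% of the 18995 rows with reads, and the smallest adjusted p was 1.00. At an unadjusted p under 0.05 the count was also 0 members, beside 0.0105% of rows (2 of 18995). The median unadjusted p of members in the authors' deposited table was 0.783. Their Wald scores (log2 fold change over its standard error) had an SD of 0.415, where scores that vary only as the standard errors state would have an SD of 1. Log2 fold changes in the authors' deposited table ran from -0.97 to 1.10, and 1 member reached 2-fold.

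With depth as a block, a step chosen after the data were seen, the count depended on how the libraries were weighted. The recovered reads of the 11142 rows with settled reads and means of 10 or more were fitted by side and depth with limma, which leaves 1 residual degree of freedom per row and shares the spread over rows. With precision weights, under which the deep pair counts more, 164 of 9266 members had an adjusted p under 0.05 (limma, Benjamini-Hochberg), beside 2.33% of rows. Of these, 37 lay on the positive side, beside 0.547% of rows, and 127 on the negative side, beside 1.78%. This weighted fit gave every row the same residual variance after weighting, so no row's own spread entered its test. With equal weights 0 members passed, beside 0.144% of rows, and the smallest adjusted p was 0.155 (limma). At an unadjusted p under 0.05 the counts were 1420 members with precision weights, beside 16.5% of rows, and 525 with equal weights, beside 6.64%. Without the block 0 members passed under either weighting (limma). Of the 164, 130 had the same sign in both pairs. Over all 9266 members, 2251 were positive in both pairs and 2656 negative in both. The median log2 difference of the 164 was 0.66 in the deep pair and 0.33 along the same direction in the shallow pair. They were called by a fit to these same pairs, which favours such agreement, so it is no separate evidence. The cultures behind a pair are not known, so side and culture cannot be told apart.

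Map1b had the smallest p in that fit. It had 1385 and 3377 normalized counts in the deep and shallow positive-side libraries, against 2141 and 4579 on the other side, lower in both pairs. With the depth block its log2 difference, positive minus negative, was -0.56 with a 95% interval of -0.73 to -0.39 (adjusted p = 6.6e-08 with precision weights and 0.155 with equal weights, limma). Apoe, given above, was at 0.41 with precision weights (adjusted p = 0.000116) and 0.36 with equal weights (adjusted p = 0.617, limma). Among the listed genes, Dcx, Zbtb20 (a hippocampal transcription factor), Nr4a3, Homer1 (a postsynaptic scaffold), Hsp90aa1 and Hsp90b1 (chaperones) were on the negative side with precision weights, and the complement gene C1qa was on the positive side. For C1qa, Homer1, Dcx and Hsp90aa1 the shallow pair differed by under 0.1 on the log2 scale, whereas for Zbtb20, Nr4a3 and Hsp90b1 both pairs were apart. In what follows, the test is the authors' unless limma is named.

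The 1 member that reached 2-fold in the authors' deposited table was Dcdc2, a doublecortin-family gene of cilia and neurons. Dcdc2 also had the smallest unadjusted p of members in that table. This gene had 5.73 normalized counts in the deep and 60.6 in the shallow positive-side library, and 3.74 and 9.38 on the negative side. A single library thus stood apart. The log2 fold change of Dcdc2 in the authors' deposited table was 1.10 (unadjusted p = 0.059, adjusted p = 1.00, DESeq2).

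The next members on the positive side had the same form. Gpatch3 had 9.09 and 30.3 normalized counts against 5.08 and 3.13 (unadjusted p = 0.0902 in the authors' deposited table, DESeq2). Minar2 (as RGD1312005) had 8.42 and 60.6 against 10.4 and 6.26. More evenly spread was the Notch ligand Jag2, with 32.7 and 74.1 against 17.9 and 28.1 normalized counts. Jag2 did not overlap between sides. Its unadjusted p in the authors' deposited table was 0.131 (DESeq2).

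On the negative side the thyroid hormone receptor Thrb came first. Thrb had 8.42 and 0 normalized counts in the deep and shallow positive-side libraries, against 8.55 and 40.7 on the other side, and 0.0948 as unadjusted p in the authors' deposited table (DESeq2). Pdk4, a kinase that holds back pyruvate oxidation, had 8.42 and 0 against 21.9 and 18.8. Ggct, of glutathione turnover, had 32.0 and 10.1 against 58.8 and 46.9. For Thrb the deep libraries were nearly equal and the shallow ones far apart, whereas both pairs of Pdk4 and Ggct were higher on the negative side. Of these 20 members of smallest p, 10 on each side, the highest authors' mean was 59.0.

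How far the contrast bounds a change depends on the values taken. The half-width of the 95% interval (1.96 standard errors) in the authors' deposited table had a median of 1.05 on the log2 scale and ran from 0.55 to 1.15. For 626 members (6.76%) the whole interval lay within 2-fold either way, for 1 within 1.5-fold and for 9258 (99.9%) within 4-fold. The share within 2-fold rose with the authors' mean, from 0.191% at 10 to 30 and 3.19% at 30 to 100 to 19.7% at 100 to 300, 34.3% at 300 to 1000 and 50% at 1000 or more.

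Those deposited intervals were drawn toward 0 by the authors' fit, which shrinks fold changes with a prior centred on 0. Recovered reads and the deposited standard error together fixed the dispersion of each member. The deposited fold change was then met to a median of 4.8e-07 to 6.0e-07 on the log2 scale in each range of means. At means above 1000 most reads were themselves chosen by that match, so it is no check there. Before shrinkage the median half-width was 1.51, or 2.85-fold, and it fell from 1.88 for members with means of 10 to 30 to 1.14 for those of 1000 or more. The interval lay within 2-fold for 0 members, within 4-fold for 6297 of 9266 (68.0%) and within 8-fold for 9030 (97.5%). That fit has no term for depth, so its dispersion takes in the difference between deep and shallow libraries. With depth as a block (limma, recovered reads), the median half-width was 0.40 with precision weights and 0.62 with equal weights. The interval then lay within 2-fold for 8275 members (89.3%) and 5498 members (59.3%), and under both weightings for all 51 members of mean 1000 or more. In the authors' fit before shrinkage, the share within 4-fold was 28.6% at means of 10 to 30 and 83.4% at 30 to 100. It rose to 96.4% at 100 to 300, 98.1% at 300 to 1000 and 100% of the 51 above.

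The narrowest and widest members show what the prior does. Before shrinkage the narrowest were Potef, an actin-like gene, with a standard error of 0.51, then Sptan1, Eef2 (translation elongation), Ubbl2 (as LOC100363494) and Tubb5. Eef2 had 1683 and 1768 normalized counts on the positive side, against 1592 and 1752 on the other. In the authors' deposited table the narrowest 5 were instead Pax3, Mir320a, LOC691065, UST4r and Cxcl13. Cxcl13, a chemokine, had 164 and 134 normalized counts in the deep libraries and 0 in both shallow ones, and Pax3 had 0 in both deep libraries and 47.1 and 9.38 in the shallow ones. All 5 had reads at 1 depth alone and the highest dispersion allowed by the fit, 10, with standard errors of 4.57 to 4.61 before shrinkage. In the authors' deposited table the median standard error of rows with a symbol was 0.108 for means under 0.1 and 0.573 for means of 10 to 30, so rows with almost no reads had the narrowest intervals.

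**Figure D3:**
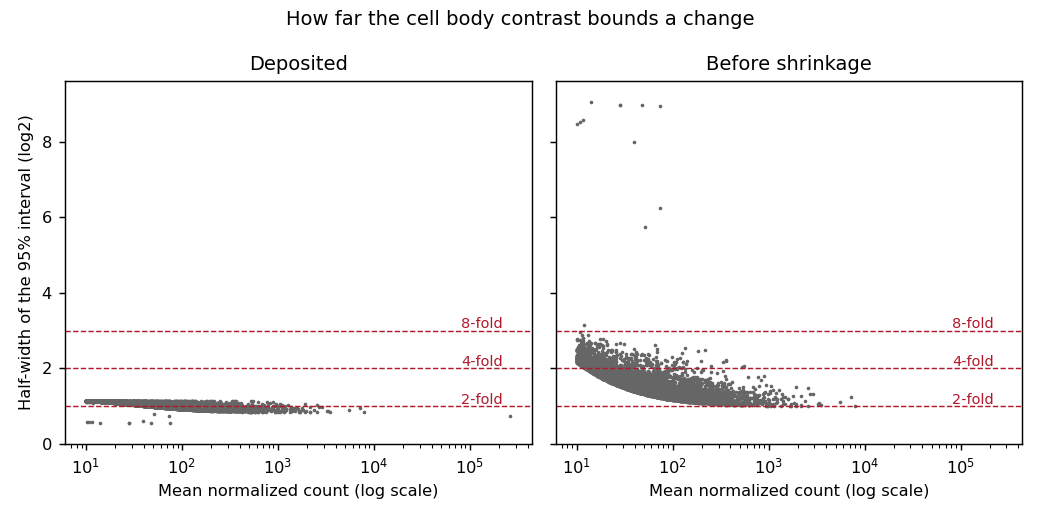
Half-width of the 95% interval of the log2 fold change against the authors' mean normalized count (log axis), 1 point per member, as deposited (left) and before shrinkage (right), with dashed lines at 2-fold, 4-fold and 8-fold. Deposited half-widths stay between 0.55 and 1.15, and before shrinkage the median is 1.51 and the lowest point is at 1.00.

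The recovered libraries differed far more by depth than by side. Across members, the log2 ratio of the 2 deep libraries had an SD of 0.33 and that of the 2 shallow ones 0.79, while the deep and shallow libraries of a side differed with an SD of 1.10 (positive) and 1.19 (negative). These spreads are over genes, which are not independent replicates. For members with means of 100 or more, Pearson's r of log2 values across genes was 0.974 within the deep pair, 0.941 within the shallow pair and 0.491 to 0.562 between a deep and a shallow library. The depth differences of the 2 sides went together across those members (r = 0.928), and the side differences of the 2 pairs hardly did (r = 0.138). The median root dispersion of members, the relative spread that the fit gave to libraries of 1 group, was 0.499. With depth as a block, the median half-width of the limma intervals was 0.40 with precision weights and 0.62 with equal weights, against 1.13 and 1.38 without the block.

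Some members stood far apart by depth. Vamp2, a synaptic vesicle fusion protein, had 38.7 and 64.4 normalized counts in the deep libraries (positive, negative) and 694 and 657 in the shallow ones. Atp1b2, a sodium pump subunit of glia, had 15.2 and 17.6 against 387 and 454. Lyz2, the lysozyme of macrophages, went the other way, with 408 and 398 in the deep and 87.5 and 75.1 in the shallow libraries. In each of these 3 the sides overlapped while the depths did not. Of 9266 members, 2767 differed at least 2-fold by depth, 1464 with the deep libraries higher and 1303 with the shallow ones higher.

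Gene groups differed in their median by depth, and most were split. The median log2 difference, deep minus shallow, was 0.12 over all members, of which 5106 of 9266 were higher in the deep libraries. It was 0.84 for 9 interneuron members (6 higher in the deep libraries), 0.69 for 27 cytosolic ribosomal protein members (21 higher) and 0.69 for 16 microglial ones (12 higher). It was -0.69 for 19 presynaptic members, of which 8 were higher in the deep libraries, -0.40 for 16 astrocyte members (4 higher) and -1.08 for 4 mural members (0 higher). What else differed between the deep and the shallow libraries was not tested.

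Within the deep pair and within the shallow pair, whose depths were near but not equal, sides were closer. The deep pair differed by 2-fold or more for 66 members, all with means under 100, and the shallow pair for 1286. Both pairs lay within 2-fold for 7928 members (85.6%), including all 413 with settled reads and means of 300 or more. In 7 members both pairs differed at least 2-fold to the same side, and all 7 had means under 30. Both positive-side libraries lay above both negative-side ones in 717 members and below them in 654, or 14.8% in all, beside 15.7% of all rows with means of 10 or more (7.45% above and 8.2% below). The members' share was thus near that of all rows.

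**Figure D4:**
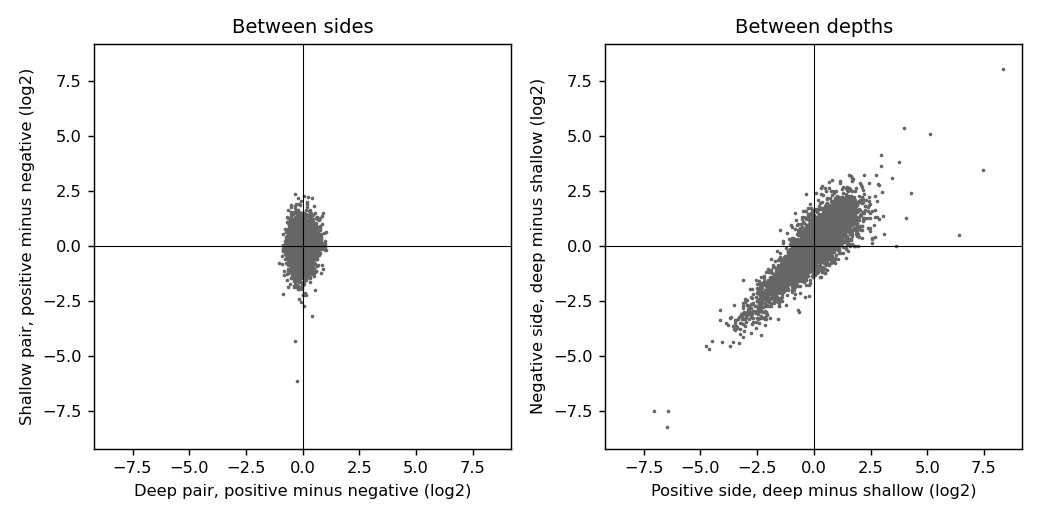
Log2 differences between recovered libraries for the 6131 members with means of 30 or more and settled reads, 1 point per member. Left, positive minus negative side in the deep pair (x) and in the shallow pair (y), a cloud around 0. Right, deep minus shallow library on the positive side (x) and on the negative side (y), a band along the diagonal.

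None of the genes tied to Abeta passed the authors' test, and Apoe passed with depth as a block and precision weights, as given above. App, the precursor of Abeta, had 820 and 1084 normalized counts in the deep and shallow positive-side libraries, against 760 and 1070 on the other side. Its 95% interval before shrinkage ran from -1.01 to 1.13. Of 28 Alzheimer disease genes listed, 22 were members, of which 13 lay on the positive side and 0 passed the test, and their log2 fold changes in the authors' deposited table ran from -0.47 to 0.31. Clu, a lipoprotein chaperone, had 1052 and 1943 normalized counts against 849 and 1795. The receptor Lrp1, which takes up Apoe and Abeta, had 331 and 636 against 333 and 992.

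Stress genes did not pass the authors' test either. Atf4, the transcription factor that the integrated stress response induces, had 336 and 202 normalized counts in the deep and shallow positive-side libraries, against 356 and 244 on the other side. The interval of Atf4 before shrinkage ran from -1.32 to 1.01. Of 30 integrated stress response genes, 24 were members, 8 on the positive side, with a median log2 fold change of -0.09 in the authors' deposited table and 0 called. The cystine transporter Slc7a11 had 169 and 141 against 210 and 216 normalized counts, lower in both pairs on the positive side, at -0.36 in the authors' deposited table (unadjusted p = 0.431, DESeq2).

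Chaperones gave like values. Of 14 endoplasmic reticulum chaperone members 3 lay on the positive side and 0 were called, with a median of -0.14 in the authors' deposited table. Hspa5, the main chaperone of the endoplasmic reticulum, had 572 and 441 against 689 and 463 normalized counts. Of 15 heat shock members 5 lay on the positive side and 0 were called, and Hsp90aa1 (as LOC100362895) had 1725 and 1128 against 2396 and 1160. For both genes the deep pair was wider apart than the shallow one.

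Activity and death genes were among the less read members. Of 18 immediate early members, 13 lay on the positive side, with a median log2 fold change of 0.25 in the authors' deposited table, and 0 were called. Dusp1, a phosphatase that ends kinase signals, was the highest at 0.62 and Nr4a3, a nuclear receptor, the lowest at -0.41 in the authors' deposited table. In the deep pair the median of the list was -0.10, in the shallow pair 0.55, so the pairs lay on opposite sides. Of 12 apoptosis members 6 were on the positive side and 0 were called.

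Synaptic genes made up 19 presynaptic and 16 postsynaptic members, 10 and 4 of them on the positive side and 0 called. Syp, a vesicle membrane protein, had 420 and 704 normalized counts on the positive side, against 463 and 716 on the other. Dlg4, the scaffold PSD-95, had 293 and 478 against 255 and 485. Both genes were higher in the shallow libraries than in the deep ones on either side. A further 8 presynaptic and 10 postsynaptic genes had means of 10 or more on rows without a symbol and are not counted.

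Transcripts called in axons are set beside their cell body intervals here. They were chosen for an axonal value far from 0, and deposited cell body half-widths reach at most 1.15, so an axonal value outside the interval is close to given by that choice and says little. By the authors' adjusted p under 0.05 (DESeq2), 104 members were called in axons, beside 23% of the 1321 axonal rows with an adjusted p. Of these, 95 were positive, beside 8.78% of those rows (116), and 9 negative, beside 14.2% (188). Most rows called negative in axons were thus not members, so the excess of positive calls among the 104 comes with the rule for members. How many members had an axonal adjusted p is not given here. For all 104, the axonal value lay outside the 95% cell body interval of the authors' deposited table. Before shrinkage this held for 92 (88.5%), namely 90 of the 95 positive and 2 of the 9 negative ones. The median log2 fold change of the 104 in the authors' deposited tables was 1.82 in axons and -0.01 in cell bodies, where 52 had the same sign as in axons. With the error of both contrasts, the difference of the deposited values passed a test for 5 of the 104, described below.

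Cp, the copper-carrying ferroxidase ceruloplasmin, had 618 and 87.5 normalized counts in the deep and shallow positive-side cell body libraries, against 557 and 78.2 on the other side. Chi3l1, a chitinase-like protein of reactive astrocytes, had 41.4 and 67.3 against 47.6 and 81.3. Sparc, a matrix-binding glycoprotein, had 356 and 1158 against 359 and 1264. In all 3, the libraries within a pair were closer to each other than those of the same side. The cell body interval before shrinkage reached 2.08 for Cp, 1.13 for Chi3l1 and 1.44 for Sparc, below the log2 values of 3.54, 3.63 and 3.0 in the authors' deposited axonal table.

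Whether the 2 contrasts differ was tested on the deposited values, with a normal test of the difference and Benjamini-Hochberg adjustment over 18406 rows, of which 0.0326% passed. The 5 members that passed were Chi3l1, Sparc, Cp, Gas6 (a ligand of receptor tyrosine kinases) and Gsta1 (a glutathione transferase). Gas6 had 487 and 418 normalized counts in cell bodies on the positive side, against 447 and 385 on the other. Gsta1 had 95.3 and 13.5 against 120.0 and 46.9, with the negative side higher in both pairs. These differences take the 2 tables to have the same numerator, which the headers do not state. With the sign of the cell body table turned, Chi3l1, Cp, Sparc and Gas6 passed again, joined by the complement gene C3, and Gsta1 did not, at 3.39 (adjusted p = 0.175, normal test on the authors' DESeq2 values). With the axonal values centred on the median of genes well read in cell bodies, Chi3l1 alone passed, at 3.38 (adjusted p = 0.0406, normal test on the authors' DESeq2 values). The deposited values of the 2 tables were shrunk separately, so their scales differ. The prior SD was 1.17 on the log2 scale in cell bodies, from the largest deposited standard error. The same rule gives 2.125 in axons, where it was not checked. At a like standard error before shrinkage, cell body values and their errors would thus be drawn in more than axonal ones. The test was not run on values before shrinkage.

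**Figure D5:**
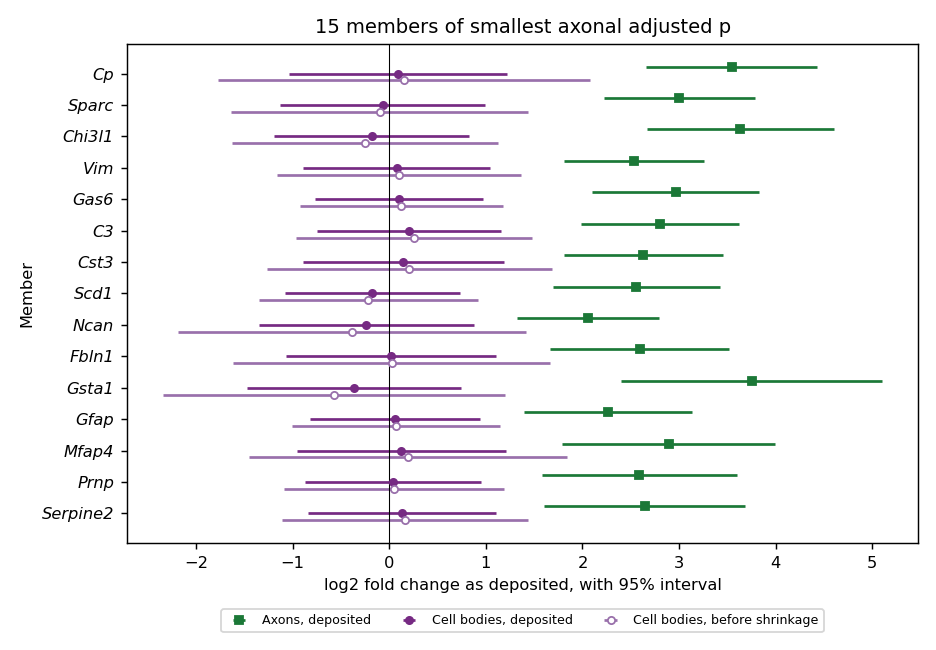
Log2 fold change with 95% interval for the 15 members of smallest axonal adjusted p, in axons as deposited (green squares), in cell bodies as deposited (filled circles) and in cell bodies before shrinkage (open circles). All axonal values lie at 2.06 or above, and all cell body values lie between -0.57 and 0.26.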

How the data were processed

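RNA was sequenced on an Illumina MiSeq, per the labels. The tools were DESeq2, SAMtools, TopHat2 and Trim Galore, per the submitters' processing notes, which give no version. Genome build, annotation and counter were not given in the sources used here. Per the file headers, the authors deposited for each compartment a mean normalized count (a signal over 4 libraries), the log2 values (fold change, standard error), a Wald score, and a p-value with its Benjamini-Hochberg adjusted p-value. The deposited table of cell bodies has no column per library, and its numerator is not named. The Wald score is the ratio of those log2 values, and the adjusted p runs over all 18995 rows with reads.

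Whole reads per library were recovered from the means, which are sums of 4 read counts each times a fixed unit. For means under 500, 100% of rows had 1 solution and 0% of shifted decoys had any; from 500 to 1000, 2.74% of decoys had one. From 1000 to 2000, 19.3% of rows had 1 solution, and from 2000 to 10000 0% did, where 82.5% and 100% of decoys had any. Rows with several solutions were settled by refitting the authors' negative binomial model at the dispersion that gave the deposited standard error. Its prior SD was 1.17 (2 times the largest deposited standard error of 0.584, a value found by matching). Every refit had to meet the log2 fold change within 0.001. Among several solutions, 1 was kept only where it alone met that change far more closely. The same refit without the prior gave the values before shrinkage. On simulated data for the cell body comparison, with means of 10 to 1000 alone, 3485 of 3488 sets of reads were recovered exactly. Dispersion and fold change were recovered in 3488 of 3488. That step was given the true reads and the same model and prior, so it checks the computation alone. Means above 1000 were not covered. Library ratios used normalized counts plus 0.5. Counting precision is limited by the 13 and 14 reads of the median member in the shallow libraries, and PCR copies were not told apart.

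The recovered libraries were planned to enter no test between treatments, and the planned tests used the deposited values. The sides are the treatment groups with the direction unknown, so a test by side is a test between treatments without direction. As alternatives chosen after seeing the data, they were compared by side with the depth of a library as a block, with limma 3.58.1 in R 4.3.3 on log2 values, once with precision weights and once with equal weights and a trend of spread with level. Python 3.11.15, numpy 2.4.6, scipy 1.17.1 and numba 0.67.0 were used. Members and gene lists (17 of cell type markers, 16 of functions) were chosen with earlier results of these data known. Genes are named by rule: the 20 of highest mean, up to 4 of highest mean per list, the 10 of smallest p per side, the 5 narrowest and widest intervals, the 15 of smallest axonal adjusted p, those next to the mean of 10, App and Atf4. The members most apart by depth, and other list genes given by name, were chosen after their values were seen. Symbols of identifiers without one, and present names of LOC symbols, came from RefSeq (9070 members matched). Just inside the threshold lay Magel2, Alg1 and Spag1 with means of 10.01, and just outside lay Cbln2 and Cst6 with 9.9997 and 9.9954. Some genes that the rule names are not reported here.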

Additional observations from a re-analysis of the deposited data

Results flagged for a closer look

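For 5 members the deposited axonal contrast differed from the deposited cell body contrast. The test was a normal one of the difference of the 2 deposited log2 fold changes, adjusted over 18406 rows. Both tables hold values shrunk toward 0. Cell body standard errors of the 5 were 0.44 to 0.58 as deposited and 0.54 to 0.98 before shrinkage. Whether the 5 would pass on values before shrinkage was not tested. The axonal value lay above the cell body value by 3.82 for Chi3l1 (adjusted p = 0.00164), 3.07 for Sparc, 3.46 for Cp, 2.87 for Gas6 and 4.11 for Gsta1 (adjusted p = 0.0152 each) on the log2 scale, from a normal test on the authors' DESeq2 values. In the recovered cell body libraries the sides of all 5 overlapped. The direction of both tables is taken to be the same, which their headers do not state. With the cell body table turned the differences were 3.45 for Chi3l1, 2.93 for Sparc, 3.63 for Cp, 3.07 for Gas6 and 3.39 for Gsta1, and Gsta1 no longer passed (adjusted p = 0.175, normal test on the authors' DESeq2 values). After the median axonal value of genes well read in cell bodies (0.44) was subtracted, 1 member passed, Chi3l1.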

How the results depend on the processing

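The count of members called stayed at 0 under 7 alternatives on the deposited values: adjustment over members, over every row with a mean of at least 10 or over rows with a symbol, means of at least 30 or 100, p recomputed, and unadjusted p under 0.05. The smallest unadjusted p of a member was 0.059 in the authors' deposited table (DESeq2), so none of these alternatives could have called one. Depth as a block on the recovered reads was an alternative chosen after seeing the data. With it, 164 members were called with precision weights and 0 with equal weights (limma), and 8275 and 5498 were bounded within 2-fold. The 626 members bounded within 2-fold became 3988 with a 90% and 10 with a 99% interval, 0 with a Bonferroni-wide one, 1 at 1.5-fold, 9258 at 4-fold, 3283 over all rows with a symbol and reads, and 0 before shrinkage, where 6297 lay within 4-fold and 9030 within 8-fold (the last 2 bounds were chosen after seeing the data). The spread of side means over members, an SD of 0.38, was 0.795 in the shallow pair alone, 0.22 at means of at least 100, and 0.574 to 0.813 when each library was left out in turn. The difference from axons passed for 5 members, and for 1 after centring the axonal values. It passed for 5 with the sign of the cell body table turned (also chosen after seeing the data). Adjusted over members it passed for 6, and with means of at least 10 in both tables for 7. Values before shrinkage were not put to this test. The 100 most read members held 36.8% of member means and 16.8% without LOC310926, an alternative chosen after seeing the data. Of 170 marker genes with a symbol and any read, 107 were members. Among named members, the value moved by more than its standard error before shrinkage in 1 under the refit, in 3 in the deep pair alone and in 23 in the shallow pair alone; the cause was not tested. A ranking per length of coding sequence was not run, since coding lengths were not used here. No paired analysis was possible because the replicate numbers of the labels could not be matched to the recovered libraries; the block by depth given above needs no numbers. Leaving out 1 library from that block would leave no residual degree of freedom.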

Other observations

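Metabolic and translation genes included well read members. All 17 glycolysis genes with a row were members, with a median authors' mean of 297.5, against 45.5 over all members. For 8 of the 17 the 95% interval of the authors' deposited table lay within 2-fold. This held for 6.76% of all members, but for 19.7% at means of 100 to 300 and 34.3% at 300 to 1000. Before shrinkage all 17 lay within 4-fold. Gapdh (as LOC685186) had 1243 and 1650 normalized counts in the deep and shallow positive-side libraries, against 1134 and 1592 on the other side, and Aldoc, the aldolase of astrocytes, had 943 and 993 against 859 and 957. Of 27 cytosolic ribosomal protein members, all lay within 4-fold before shrinkage and 18 were on the positive side. Rplp0, a protein of the ribosomal stalk, had 705 and 788 against 616 and 601 normalized counts, with no overlap of sides and an unadjusted p of 0.574 in the authors' deposited table (DESeq2). Of 18 oxidative phosphorylation members 17, and of 20 cholesterol synthesis members 19, were within 4-fold before shrinkage. Hmgcs1, an early enzyme of sterol synthesis, had 1629 and 1266 against 1788 and 1276.

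Rows without a symbol, which are not members, held 72.6% of the summed means of the authors' deposited table, and members held 27.1%. By RefSeq, such rows include Map2, Gria2, Camk2b (authors' means of 1366, 1164 and 847) and Hspa8. The means of all rows summed to 4.061e+06, so these genes are a small part of that share. The rows that hold most of it were not identified here. The interval before shrinkage excluded 0 in 1 member of 9266, Dcdc2, at 2.43 with a standard error of 1.21 on the log2 scale.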
